A study of Mus musculus with 2756 samples.

Results

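The DNA replication and S phase genes are a set of 34 mouse genes that copy DNA or prepare the cell to do so. They were listed by name, with earlier results of these data known. All 34 were present among the 16441 genes of the deposited count table, and all 34 passed the filter on low counts that was applied before testing. They divide by role. Licensing, the loading of the MCM helicase onto origins, is represented by Mcm2, Mcm3, Mcm4, Mcm5, Mcm6, Mcm7, Cdc6 and Orc6. Origin firing is represented by Cdc45, Gins1, Gins2 and Mcm10, the polymerases and primase by Pola1, Prim1 and Pole, and the sliding clamp with the joining of Okazaki fragments by Pcna, Fen1 and Lig1. Single-strand binding and the replication checkpoint are represented by Rpa1, Rpa2, Tipin and Topbp1, and nucleotide supply by Tyms, Rrm1, Rrm2 and Dut. Slbp, Casp8ap2, Chaf1a and Chaf1b serve histone supply and chromatin assembly, and Ccne1, Ccne2, E2f8 and Cdca7 are tied to the passage from G1 into S phase.

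The cells came from the embryonic mouse neocortex and had been labelled with FlashTag, a fluorescent dye that enters cells dividing beside the ventricle. Injections took place at embryonic days 12 to 15 (E12, E13, E14 and E15) and collection 1, 24 or 96 h after them, giving 12 conditions with 2756 cells in all. Every group shared the injection, microdissection of the presumptive primary somatosensory cortex and a sort for the brightest 5% of cells by dye. A cell that divides again dilutes the dye, so this gate bears on which cells were kept at each time. The labels name no strain, animal or litter, so each condition counts as 1 sample, and a p-value here measures only how these conditions vary, which may be technical. Classes come from the authors' cluster names, in which AP and BP stand for apical and basal progenitors, N1d and N4d for neurons found mainly 1 and 4 days after the dye, IN for interneurons and Astro for astrocytes.

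In G1 phase, the origin recognition complex and Cdc6 place the ring of Mcm2 to Mcm7 on DNA, and at the start of S phase Cdc45 and the GINS proteins turn that ring into a running helicase behind which the polymerases, the Pcna clamp and Lig1 work. Many of these genes are switched on together by E2F transcription factors when cyclin E activity rises, and most are low in cells that have left the cell cycle. Apical progenitors of the cortex divide at the ventricular surface and copy their DNA farther from it, whereas neurons do not divide, so that the level of these genes is a common way to tell cycling progenitors from their daughters.

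Promoters of 4 genes are shown because their genes passed the threshold for a decline between 24 and 96 h and because they hold a consensus E2F site. They were picked after the values had been seen, by the smallest p among such members with a motif. Members with a smaller p whose window was missing or held no motif, Mcm2 among them, were passed over. Each window runs from 250 bases before to 50 bases after the start site in RefSeq, on GRCm38.p6, and is written in the direction of transcription. Capitals mark the motifs searched, TTTCCCGC, TTTGGCGC, TTTCGCGC and TTTGCCGC on both strands, so that GCGGGAAA, GCGCCAAA, GCGCGAAA and GCGGCAAA are their reverse complements.
Mcm5: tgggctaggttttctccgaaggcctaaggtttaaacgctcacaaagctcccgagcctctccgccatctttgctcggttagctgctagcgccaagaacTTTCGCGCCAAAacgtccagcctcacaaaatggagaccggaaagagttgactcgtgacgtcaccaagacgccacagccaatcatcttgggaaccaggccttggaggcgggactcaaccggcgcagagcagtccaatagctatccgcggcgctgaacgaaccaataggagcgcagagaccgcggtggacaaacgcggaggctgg
Mcm3: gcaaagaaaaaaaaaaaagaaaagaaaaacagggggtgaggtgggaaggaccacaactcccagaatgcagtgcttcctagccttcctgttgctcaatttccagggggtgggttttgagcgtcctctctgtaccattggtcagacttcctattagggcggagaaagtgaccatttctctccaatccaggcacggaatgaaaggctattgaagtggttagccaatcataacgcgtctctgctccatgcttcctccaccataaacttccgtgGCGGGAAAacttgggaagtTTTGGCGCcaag
Cdca7: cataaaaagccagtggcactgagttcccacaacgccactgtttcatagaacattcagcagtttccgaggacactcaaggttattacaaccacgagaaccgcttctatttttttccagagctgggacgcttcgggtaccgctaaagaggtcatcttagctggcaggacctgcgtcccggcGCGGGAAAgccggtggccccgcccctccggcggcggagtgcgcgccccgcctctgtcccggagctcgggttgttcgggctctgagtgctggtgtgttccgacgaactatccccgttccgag
Mcm7: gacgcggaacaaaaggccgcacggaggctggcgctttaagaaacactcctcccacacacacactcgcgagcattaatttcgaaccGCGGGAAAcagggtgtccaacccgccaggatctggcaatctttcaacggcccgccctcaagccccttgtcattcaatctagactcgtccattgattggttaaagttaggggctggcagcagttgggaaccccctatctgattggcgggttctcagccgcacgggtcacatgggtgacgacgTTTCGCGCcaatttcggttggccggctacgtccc
Mcm5 lies on chromosome 8 (chr8:75109259-75109558, plus strand) and has TTTCGCGC at -153 and GCGCCAAA at -149 from its start site, which overlap. Mcm3 is on chromosome 1 (chr1:20820263-20820562, minus strand), with GCGGGAAA at +20 and TTTGGCGC at +39. Cdca7 is on chromosome 2 (chr2:72475969-72476268, plus strand), with GCGGGAAA at -71. Mcm7 is on chromosome 5 (chr5:138171834-138172133, minus strand), with GCGGGAAA at -165 and TTTCGCGC at +17. A window was found for 28 of the 34 genes, and 10 of these (35.7%) held at least 1 of the motifs. The share was 44% (22 of 50) for a list of 60 other replication genes, 4.35% (1 of 23) for 26 genes of G2 and M phase, and 4.66% (482 of 10341) for the genes of the count table that had a window; over the whole promoter table it was 2.6%. A match describes these letters and is not evidence of binding.

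Cells held 13191 to 1312820 counts, with a median of 328909.5, and each condition was made up of over 100 cells. For the comparison of times, the AP, BP, N1d and N4d cells belonging to a condition were added up (lineage sums, 46.1 to 98 M counts). For comparisons within a class, they were summed over AP cells at 1 h and over AP, BP and N1d cells at 24 h for each injection day (class sums, 4.01 to 68.8 M counts from 8 or more cells). Levels are in CPM, the usual scaling of a gene's count by the total of its sum. Apical progenitor markers such as Sox2 and Pax6 (12 genes) summed to 5240 to 10400 CPM in AP cells at 24 h and to 3090 to 7720 CPM at 1 h. The same list stood at 1310 to 3930 CPM in BP cells and at 588 to 1260 CPM in N1d cells. Basal progenitor markers such as Eomes (8 genes) summed to 2380 to 5290 CPM in BP cells and to 625 to 1140 CPM in AP cells at 24 h, and young neuron markers (8 genes) summed to 7530 to 9850 CPM in N4d cells at 96 h and to 6230 to 7620 CPM in N1d cells at 24 h, against at most 3420 CPM in BP cells and at most 1420 CPM in AP cells at 24 h. Each collection time was processed under its own run codes, so time and run cannot be told apart.

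The 34 genes together made up a larger share of the counts in progenitors than in neurons. Their summed level in AP cells at 1 h was 7369, 3741, 2553 and 2025 CPM for injections at E12, E13, E14 and E15. At 24 h, it was 1779, 1391, 1065 and 1338 CPM in N1d cells, 5591, 6564, 2658 and 3696 CPM in BP cells, and 4017, 6138, 4014 and 3116 CPM in AP cells. At 96 h, N4d cells held 855, 903, 894 and 1313 CPM. Among these sums, every progenitor sum lay above every neuron sum. The progenitor sums differed among themselves by injection day more than BP differed from AP. BP cells at 1 h, not among these sums, held 1235 CPM for E15 (32 cells), below the N1d cells of E12 at 24 h. These are descriptions with no test, since the authors made the classes from gene expression. The mean over injection days was 1393 ± 294.2 CPM in N1d cells, 4627 ± 1772 CPM in BP cells and 4321 ± 1283 CPM in AP cells at 24 h (SD, n = 4 days each), and 3922 ± 2407 CPM in AP cells at 1 h.

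**Figure D1:**
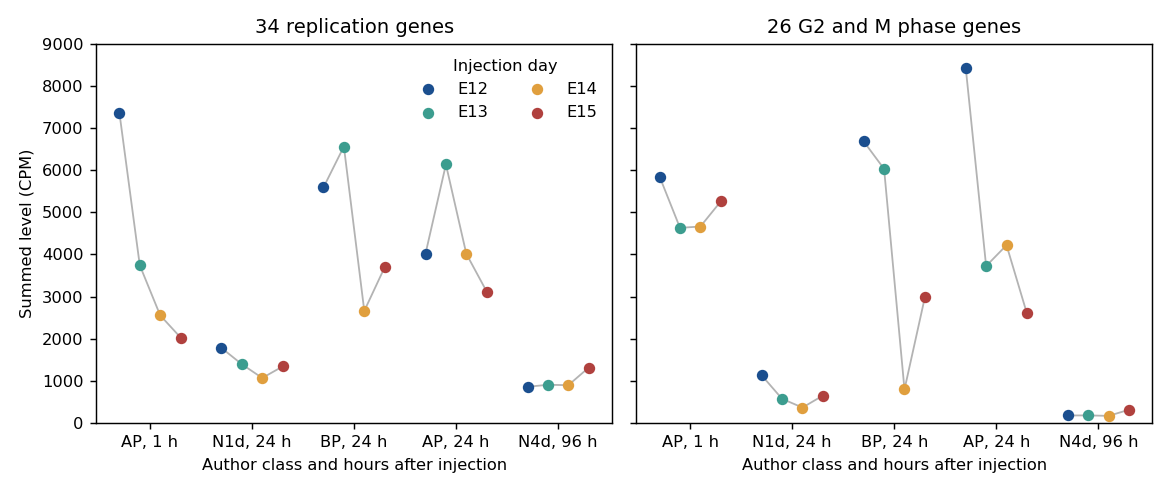
Summed level (CPM, vertical axis) of the 34 replication genes (left) and of 26 G2 and M phase genes (right) for each author class and collection time, every point being an injection day. In AP cells at 1 h the replication genes stand at 7369, 3741, 2553 and 2025 CPM from E12 to E15, while the G2 and M phase genes stand at 5849, 4632, 4663 and 5261 CPM.

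The first question was how the genes differ between collection times in labelled cells as a whole. The cell make-up of the lineage sums changed with time: AP and BP cells were 91.4 to 100% of cells at 1 h, 18.8 to 37.6% at 24 h and 2.3 to 6.33% at 96 h. At 24 h, AP and BP cells gave 55.4 to 69.9% of the counts of the 34 genes, and at 96 h they gave 5.21 to 20.7%. Fewer progenitors and less RNA per cell cannot be told apart in these sums, and the part of the make-up in the results below was not tested. Between 24 and 96 h, marker lists moved as well: all 8 basal progenitor markers and 8 of 12 apical progenitor markers fell, while 5 of 6 mature neuron markers and all 5 interneuron markers tested rose (median log2 change 4.39 and 6.06). Mature neuron markers summed to 3120 to 5470 CPM in N4d cells at 96 h and to 394 to 480 CPM in N1d cells at 24 h. Their part in the result was not tested either. Of the 34 genes, 17 fell between 24 and 96 h and none rose, at an adjusted p under 0.05 in edgeR's quasi-likelihood test; over all 10210 genes tested, 12.5% fell and 11.7% rose. The median log2 change of the 34 was -1.48, against -0.03 for all genes tested. Between 1 and 24 h, 2 of the 34 genes fell and none rose (7.76% and 11.4% of all genes), with a median log2 change of -0.45, against -0.003 for all genes; the estimate was negative for 29 of the 34, against 50.2% of all genes.

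These counts depended on single conditions. The share of all genes called is not given here for the fits with 1 condition left out. A change in the number of members called therefore cannot be told apart from a change over all genes. Between 24 and 96 h, the number that fell was 7 without E15 at 24 h, 9 without E12 or without E14 at 96 h, 10 without E12 at 24 h, E13 at 24 h or E13 at 96 h, and 25 without E15 at 96 h. The median over the 34 stayed between -2.07 and -1.23 in these fits. Between 1 and 24 h, the number that fell was 0 without E12 at 1 h, E12 at 24 h, E13 at 1 h or E14 at 24 h, 1 without E13 at 24 h, 3 without E12 or without E15 at 96 h, 4 without E14 at 96 h and 6 without E15 at 1 h, and the median was 0.01 without E12 at 1 h. All 34 genes were highest in E12 among the AP sums at 1 h.

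Of the 8 licensing genes, 5 fell between 24 and 96 h (Mcm2, Mcm3, Mcm5, Mcm6 and Mcm7) and 1 fell between 1 and 24 h (Mcm5). Mcm2, a subunit of the helicase ring, had 247.6, 171.002, 125.995 and 81.3 CPM at 1 h, 110.5, 119.2, 52.9 and 61.2 CPM at 24 h, and 4.96, 15.1, 6.41 and 9.22 CPM at 96 h, for E12 to E15 in each case. All 4 values at 96 h lay under all 4 at 24 h, and the log2 change between 24 and 96 h was -3.11 ± 0.38 (adjusted p = 0.000144). Mcm5, another subunit, had 281.5, 158.4, 87.3 and 66.4 CPM at 1 h, 91.96, 115.6, 30.7 and 52.2 CPM at 24 h, and 14.1, 12.8, 8.18 and 9.59 CPM at 96 h. It fell at both steps, with log2 changes of -2.57 ± 0.32 between 24 and 96 h (adjusted p = 0.000163) and -0.94 ± 0.30 between 1 and 24 h (adjusted p = 0.0441), although 2 of the values at 24 h lay within the range at 1 h. The call between 1 and 24 h was lost without E12 at 1 h, E12 at 24 h, E13 at 1 h, E13 at 96 h or E14 at 24 h. Mcm3, which also belongs to the ring, had 206.1, 106.3, 67.7 and 44.3 CPM at 1 h, 49.1, 60.7, 32.8 and 40.9 CPM at 24 h, and 7.90, 5.57, 1.76 and 7.37 CPM at 96 h. Its change was -2.96 ± 0.44 between 24 and 96 h (adjusted p = 0.000542) and -1.08 ± 0.42 between 1 and 24 h, which did not pass (adjusted p = 0.0891).

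Mcm6, Mcm7 and Mcm4 make up the rest of the ring. Mcm6 had 492, 263.7, 145.2 and 114.3 CPM at 1 h, 159.4, 159.8, 112.2 and 122.2 CPM at 24 h, and 16.7, 42.3, 28.4 and 77.3 CPM at 96 h, and the log2 change was -1.63 ± 0.48 between 24 and 96 h (adjusted p = 0.0263). Mcm7 had 578, 332, 243.9 and 199.01 CPM at 1 h, 201.7, 240.5, 168.7 and 192.98 CPM at 24 h, and 105.5, 83.8, 69.6 and 128.9 CPM at 96 h, with a change of -0.98 ± 0.27 (adjusted p = 0.0172). The Mcm6 call was lost without E12, E13 or E15 at 24 h and without E12, E13 or E14 at 96 h, with an adjusted p of up to 0.0750. The Mcm7 call was lost without E15 at 24 h and without E12, E13 or E14 at 96 h, with up to 0.0615. Mcm4 had 276.2, 148.1, 131.9 and 46.9 CPM at 1 h, 38.9, 90.9, 68.99 and 55.5 CPM at 24 h, and 35.8, 30.9, 31.1 and 49.8 CPM at 96 h. It was the ring subunit with no call at either step: the change was -0.72 ± 0.40 between 24 and 96 h (adjusted p = 0.207) and -1.17 ± 0.41 between 1 and 24 h (adjusted p = 0.0643). At 96 h, Mcm4 in the E12 sum (35.8 CPM) was close to its value at 24 h (38.9 CPM), whereas Mcm2 in the same pair of sums stood at 4.96 and 110.5 CPM. Whether the subunits differ from one another in their change was not tested.

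Cdc6, which helps to load the ring, was a low gene with 48.5, 15.3, 2.46 and 4.34 CPM at 1 h, 13.1, 21.7, 7.74 and 23.1 CPM at 24 h, and 0.546, 0.658, 0 and 5.49 CPM at 96 h; a count of 0 in the E14 sum at 96 h allows up to 0.0459 CPM, which covers counting error only. All values at 96 h lay under those at 24 h, but the error was wide and the change of -3.31 ± 1.36 did not pass (adjusted p = 0.0935). Without E15 at 96 h, where Cdc6 stood apart from the other days, it was -6.19 (adjusted p = 0.00703). Orc6, a subunit of the origin recognition complex, did not fall between 24 and 96 h, with 76.4, 78.3, 107.2 and 105.02 CPM, against 67.4, 67.6, 91.03 and 83.5 CPM at 24 h (log2 change 0.29 ± 0.33, adjusted p = 0.552); without strand information, reads of Orc6 and of its opposite-strand neighbour Vps35 cannot be told apart where their exons overlap.

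**Figure D2:**
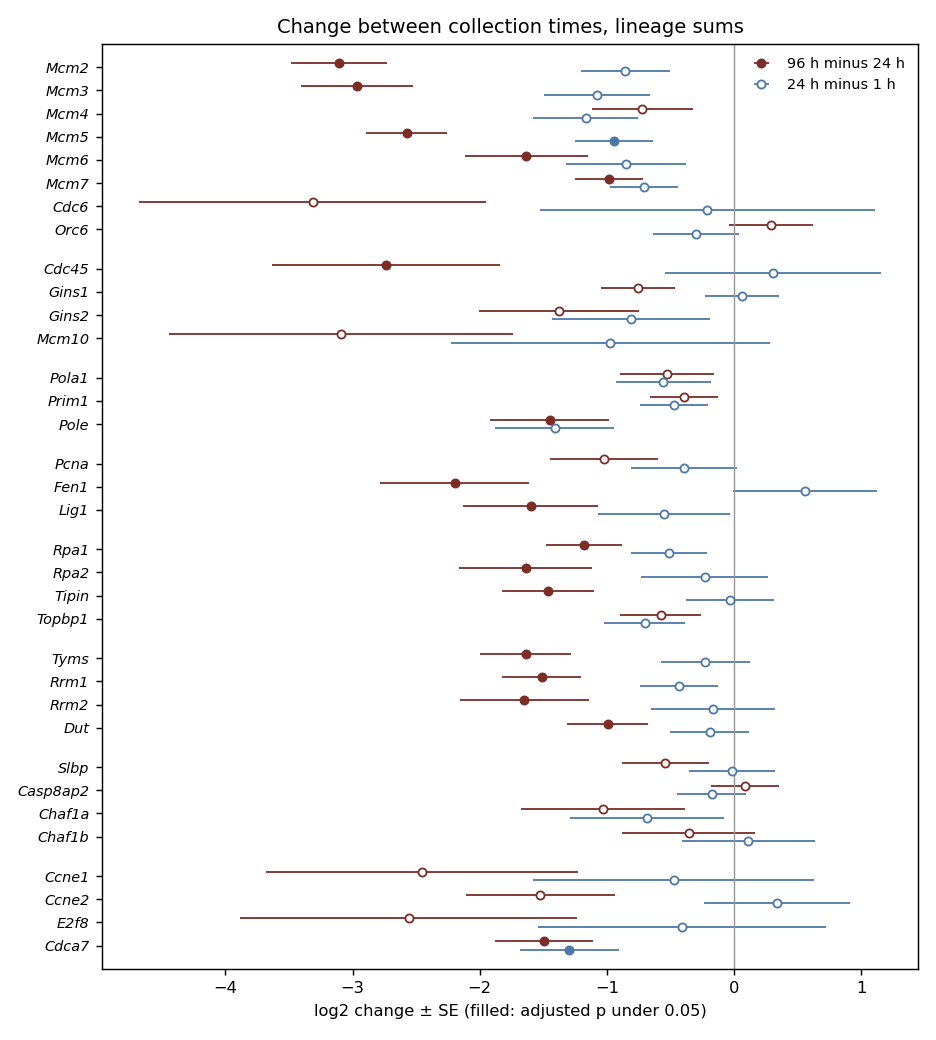
log2 change of each of the 34 genes between 24 and 96 h (dark red) and between 1 and 24 h (blue) in lineage sums, with the SE as a bar, filled where the adjusted p is under 0.05 and grouped by role. Between 24 and 96 h, 17 genes are filled, the lowest filled value being Mcm2 at -3.11, and between 1 and 24 h only Mcm5 and Cdca7 are filled.

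Among genes of origin firing, Cdc45, the helicase activator, was called between 24 and 96 h with a log2 change of -2.73 ± 0.90 (adjusted p = 0.0409), and Gins1, Gins2 and Mcm10 were not, with -0.76, -1.37 and -3.09. Of the polymerases and primase, Pole, the catalytic subunit of the leading-strand polymerase, fell by 1.45 ± 0.47 (adjusted p = 0.0385), while Pola1 and Prim1, which start new strands, had changes of -0.53 and -0.40 and did not pass. The Cdc45 and Pole calls were each lost in some fits with 1 condition left out (7 and 6 of 12), with an adjusted p of up to 0.114 and 0.214, both without E15 at 24 h. Pole just missed the threshold between 1 and 24 h (-1.41 ± 0.47, adjusted p = 0.0507).

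Pcna, the sliding clamp, had 185.4, 65.5, 66.1 and 40.04 CPM at 1 h, 75.9, 90.4, 32.9 and 62.6 CPM at 24 h, and 19.4, 25.8, 28.2 and 43.2 CPM at 96 h. The E15 sums at 24 and 96 h were 62.6 and 43.2 CPM, and the groups overlapped, since the E14 sum at 24 h was low at 32.9 CPM. The change of -1.02 ± 0.42 did not pass (adjusted p = 0.0966), but it did without E12 at 1 h (0.0316) or E15 at 96 h (0.0241). Fen1, which trims Okazaki fragments, and Lig1, which seals them, did fall between 24 and 96 h, with log2 changes of -2.20 ± 0.59 and -1.60 ± 0.53 (adjusted p = 0.0162 and 0.0422). The Fen1 call was lost without E15 at 24 h or E12 at 96 h, with an adjusted p of up to 0.0561, and the Lig1 call in 7 of the 12 fits that left out 1 condition, with up to 0.160 without E15 at 24 h.

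Of the genes for single-strand binding and the checkpoint, Rpa1, Rpa2 and Tipin fell between 24 and 96 h. Tipin, which protects stalled forks together with Timeless, had 210.7, 112.1, 85.4 and 83.9 CPM at 1 h, 172.4, 124.3, 84.9 and 101.3 CPM at 24 h, and 35.4, 30.7, 25.8 and 69.2 CPM at 96 h. Its E13 and E14 sums were close at 1 and 24 h, and the change between 24 and 96 h was -1.46 ± 0.36 (adjusted p = 0.0110). Rpa1, the large subunit of the single-strand binding protein, had 214.2, 79.9, 41.4 and 52.8 CPM at 1 h, 101.7, 61.7, 40.5 and 46.8 CPM at 24 h, and 30.4, 26.2, 26.2 and 18.6 CPM at 96 h. All 96 h values lay under all 24 h values, with a change of -1.18 ± 0.30 (adjusted p = 0.0126; 0.0544 without E15 at 24 h). Rpa2 fell by 1.64 ± 0.52 (adjusted p = 0.0354), a call lost in 6 of those 12 fits, with up to 0.120 without E12 at 96 h. Topbp1, an activator of the ATR checkpoint kinase, did not pass at -0.58 ± 0.32 (adjusted p = 0.205).

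All 4 genes of nucleotide supply fell between 24 and 96 h, but the calls of Rrm2 and Dut depended on single conditions. Tyms, thymidylate synthase, had 369.9, 162.9, 172.996 and 97.7 CPM at 1 h, 238.9, 156.6, 108.2 and 167.3 CPM at 24 h, and 37.98, 52.6, 34.9 and 72.9 CPM at 96 h, with a change of -1.64 ± 0.36 (adjusted p = 0.00562). Rrm1, the large subunit of ribonucleotide reductase, had 369, 207.1, 165.996 and 137.2 CPM at 1 h, 192.9, 180.9, 107.3 and 156.9 CPM at 24 h, and 66.5, 43.2, 27.9 and 74.4 CPM at 96 h, with a change of -1.51 ± 0.31 (adjusted p = 0.00417). In both, the 4 values at 96 h were under those at 24 h, and the values at 24 h overlapped with those at 1 h. Rrm2, the small subunit, and Dut, which keeps uracil out of DNA, fell with log2 changes of -1.65 ± 0.51 and -0.99 ± 0.32 (adjusted p = 0.0314 and 0.0381). Both calls were lost without E12, E13 or E15 at 24 h and without E12, E13 or E14 at 96 h, with an adjusted p of up to 0.112 for Rrm2 and 0.132 for Dut. Between 1 and 24 h, none of the 4 passed, with log2 changes between -0.43 and -0.16.

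Genes of histone supply and chromatin assembly made no call in either step. Slbp, which binds the stem-loop of histone mRNA, had 226.9, 98.1, 82.7 and 48.2 CPM at 1 h, 181.4, 99.4, 72.1 and 80.1 CPM at 24 h, and 64.7, 60.9, 46.8 and 86.6 CPM at 96 h. The E15 value at 96 h was above that at 24 h while the other days were below, and the changes were -0.54 ± 0.34 between 24 and 96 h (adjusted p = 0.269; -1.03 and 0.0147 without E15 at 96 h) and -0.02 ± 0.34 between 1 and 24 h. Casp8ap2, needed for histone gene transcription, held 111.7, 106.7, 132.97 and 139.7 CPM at 96 h, against 97.2, 141.4, 118.7 and 122.5 CPM at 24 h, a change of 0.09 ± 0.27. The values at both times overlapped.

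Among the G1/S regulators, Cdca7, a target of E2F and Myc factors, was called at both steps. It had 292.6, 259.7, 178.5 and 156.3 CPM at 1 h, 88.96, 91.4, 87.3 and 106.8 CPM at 24 h, and 28.6, 21.01, 14.2 and 67.99 CPM at 96 h. The values at 24 h were close to each other and lay under all values at 1 h, which no other member showed (1 of 34, against 9.98% of all genes tested). The log2 change was -1.49 ± 0.39 between 24 and 96 h (adjusted p = 0.0143) and -1.29 ± 0.39 between 1 and 24 h (adjusted p = 0.0312; lost without E12 at 1 h, where it was 0.0867, and without E12, E13, E14 or E15 at 24 h or E13 at 1 h). Cyclin E genes were lower and more variable. Ccne1 had 57.7, 7.53, 6.90 and 6.68 CPM at 1 h, 15.7, 26.9, 3.22 and 4.97 CPM at 24 h, and 0.0964, 2.95, 0.0612 and 3.08 CPM at 96 h, and Ccne2 had 33.9, 7.67, 13.2 and 7.50 CPM at 1 h, 22.8, 23.5, 13.4 and 15.99 CPM at 24 h, and 3.29, 8.09, 2.81 and 9.63 CPM at 96 h. For Ccne2 no 96 h value reached the lowest at 24 h, but neither gene passed between 24 and 96 h (-2.46 ± 1.23, adjusted p = 0.162, and -1.52 ± 0.59, adjusted p = 0.0751). Both passed without E15 at 96 h (0.0485 and 0.0234), and Ccne2 also without E12 at 1 h (0.0451). Over the list, 20 of 34 genes had all 4 sums at 96 h under all 4 at 24 h, against 15.1% of all genes tested.

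The second question was whether the genes differ within one class, AP cells, between 24 h and 1 h after the dye. No member passed in either direction (0 of 34 in edgeR, with 5 at an unadjusted p under 0.05; DESeq2 also called 0), where 0.376% of all 10359 genes tested passed and 11.4% had an unadjusted p under 0.05. The estimate was positive for 30 of the 34 (47.9% of all genes), with a median log2 change of 0.27, against -0.03 for all genes. This split by injection day. The summed level was 4017 CPM at 24 h and 7369 CPM at 1 h for E12, a ratio of 0.545, with 3 of 34 genes higher at 24 h. It was 6138 and 3741 CPM for E13 (ratio 1.64, 29 of 34 higher), 4014 and 2553 CPM for E14 (1.57, 32 of 34), and 3116 and 2025 CPM for E15 (1.54, 28 of 34). The E12 cells stood opposite to the other 3 days, and the AP sums at 24 h held few cells (14, 22, 32 and 44). The share of all genes higher at 24 h was not counted day by day. Without E13 at 24 h the median was -0.04. Different clusters held most AP cells at each time: at 24 h, 58% were AP.late, 31.2% AP.mid2, 7.14% AP.mid1 and 3.57% AP.early, and at 1 h 22% were AP.late, 21.3% AP.mid2, 30.8% AP.mid1 and 26% AP.early. Within a cluster, the summed level in AP.late was 4155 CPM at 24 h and 1566 CPM at 1 h for E14, and 3056 and 1624 CPM for E15; in AP.mid2 it was 3473 CPM at 24 h and 2727 CPM at 1 h for E14. These were the days with at least 10 cells of a cluster at both times, and the E14 sums held 12 to 33 cells.

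AP cells were also compared at the same embryonic age. At E13 the summed level was 4017 CPM in AP cells labelled 24 h before and 3741 CPM in those labelled 1 h before (ratio 1.07); at E14 it was 6138 and 2553 CPM (2.4), and at E15 it was 4014 and 2025 CPM (1.98). In a fit with embryonic age in place of injection day, the median log2 change was 0.68, and again no member passed. For the G2 and M phase genes at the same age, their sums at 24 h were 1.82, 0.799 and 0.802 times those at 1 h. AP cells at 24 h also had more counts and detected genes than at 1 h (medians of 507069.5 and 5214, against 319328 and 4371), lower mitochondrial shares (3.0%, against 5.1%), and higher young neuron markers (at least 648 CPM, against at most 594 CPM); the part of these in the result was not tested.

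Among the named genes, Ccne2 had the smallest unadjusted p. It held 109.4, 70.7, 30.9 and 15.1 CPM in AP cells at 24 h, against 34.8, 6.73, 13.2 and 8.32 CPM at 1 h, each day being higher at 24 h, and the log2 change was 1.64 ± 0.56 (adjusted p = 0.241). Slbp held 206.5, 176.9, 170.9 and 106.3 CPM at 24 h and 233.2, 101.5, 84.9 and 46.97 CPM at 1 h, with a change of 0.69 ± 0.25 (adjusted p = 0.273). Fen1 and Tipin, named after their values were seen, had changes of 1.33 ± 0.50 and 0.71 ± 0.28, and Orc6 was the gene lower at an unadjusted p under 0.05 (-0.68 ± 0.28, adjusted p = 0.375).

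In the helicase ring, estimates ran from -0.06 to 0.35 and none passed. The 95% interval was -0.91 to 1.25 for Mcm2 and -0.24 to 0.94 for Mcm6, so changes in either direction remain possible. Mcm2 held 133.7, 311, 136.3 and 101.1 CPM in AP cells at 24 h, against 255.1, 177.1, 113.02 and 89.5 CPM at 1 h. Mcm6 held 164.2, 447, 309 and 239.7 CPM at 24 h, against 505, 270.1, 151.6 and 119.8 CPM at 1 h. E12 was the day on which both were lower at 24 h, and the changes were 0.17 ± 0.47 for Mcm2 and 0.35 ± 0.26 for Mcm6. For Mcm3, Mcm4, Mcm5 and Mcm7 they were 0.11, 0.17, 0.08 and -0.06; with injection day as a replicate block the sign turned for Mcm4 (-0.13) and Mcm5 (-0.04), and with embryonic age it turned for Mcm7 (0.31). Pcna had 90.5, 148.3, 79.7 and 86.1 CPM at 24 h and 186.9, 67.8, 66.5 and 41.5 CPM at 1 h, with a change of 0.35 ± 0.36 and a 95% interval of -0.48 to 1.18. Cdc6 had 0, 47.1, 31.6 and 24.98 CPM at 24 h and 49.9, 15.9, 0.176 and 5.03 CPM at 1 h; the count of 0 in the E12 sum at 24 h allows up to 0.569 CPM. Ccne1 had 15.9, 44.1, 7.76 and 8.79 CPM at 24 h and 59.6, 7.77, 7.54 and 6.71 CPM at 1 h. For Cdc6 and Ccne1 the SE of the change was 1.38 and 1.09 on the log2 scale, and neither change passed.

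The third question was how the genes vary with the day of injection. In AP cells at 1 h all 34 genes had a negative slope, with a median of -0.66 on the log2 scale per embryonic day, whereas the slope was negative for 48.2% of all genes tested and the median of all genes was 0.01. No member passed the adjusted threshold in edgeR (0.0193% of all genes did). A negative slope with an unadjusted p under 0.05 was seen for 22 (1.13% of all genes, 3.06% counting both directions). DESeq2 called 4, and its share over all genes is not given here. The edgeR fit shares its spread with the small progenitor sums of 24 h (biological coefficient of variation 71.2%). In a fit added after the data had been seen, with AP cells at 1 h beside the large N1d and N4d sums and a coefficient of variation of 46.3%, 30 members were tested and 8 fell with injection day (Lig1, Casp8ap2, Topbp1, Dut, Orc6, Slbp, Mcm4 and Mcm7), where 0.245% of all 10195 genes fell.

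All 34 genes were highest in E12 cells, which held for 26.6% of all genes tested, and 22 of the 34 fell in value at every daily step, against 4.88%. The run codes allow the trend to be read within a run. E14 and E12 cells at 1 h shared run code SCHT5. Their summed level was 2553 CPM in E14 and 7369 CPM in E12, a ratio of 0.346, with all 34 genes lower in E14. The share of all genes lower in E14 was not counted for this pair. E15 and E13 cells shared run code SCHT6, with 2025 CPM in E15 and 3741 CPM in E13, a ratio of 0.541 with 32 of 34 genes lower (45.2% of all genes were). In both pairs together, 32 of 34 genes were lower at the later day, against 24.3% of all genes. With the run code as a block, the median slope was -0.65. Without E12 it was -0.44, and without E15 at 1 h it was -0.83.

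Lig1, the replicative DNA ligase, had the smallest p, with 445, 185.01, 94.9 and 60.02 CPM from E12 to E15, a slope of -0.98 ± 0.20 (adjusted p = 0.164; -0.98 ± 0.14 and 0.00767 in the fit with large sums). Slbp went the same way at 233.2, 101.5, 84.9 and 46.97 CPM (-0.74 ± 0.15, adjusted p = 0.200; 0.0416 with large sums). Each daily value of both genes was below the one before. Dut had 418, 261.1, 124.5 and 119.7 CPM, with -0.66 ± 0.15, and Rrm2 had 323, 89.7, 63.7 and 53.1 CPM, with -0.86 ± 0.23. Lig1, Dut and Rrm2 were named after their values had been seen.

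No subunit of the helicase ring passed the threshold with injection day in the fit of the class sums. In the fit with large sums, Mcm4 and Mcm7 passed (adjusted p = 0.0472 and 0.0477) and the other subunits did not. The slopes below are from the class sums. Mcm6 had 505, 270.1, 151.6 and 119.8 CPM (-0.72 ± 0.16), Mcm7 had 586, 338, 243.5 and 197.7 CPM (-0.53 ± 0.15) and Mcm5 had 288.7, 164.03, 95.03 and 78.1 CPM (-0.66 ± 0.24). Mcm4 had 282.96, 153.4, 135.9 and 56.5 CPM (-0.72 ± 0.30), Mcm3 had 211.3, 110.1, 73.8 and 53.3 CPM (-0.67 ± 0.29) and Mcm2 had 255.1, 177.1, 113.02 and 89.5 CPM (-0.53 ± 0.30). All 6 subunits stood lower on each later day, and whether their slopes differ was not tested. Pcna had 186.9, 67.8, 66.5 and 41.5 CPM, which was nearly level between E13 and E14 (-0.68 ± 0.22). In the cyclin E genes E12 stood apart: Ccne1 had 59.6, 7.77, 7.54 and 6.71 CPM (-1.02 ± 0.62) and Ccne2 had 34.8, 6.73, 13.2 and 8.32 CPM (-0.60 ± 0.32). Between the later 3 days Ccne1 was nearly level and Ccne2 showed no order. Cdc6 had 49.9, 15.9, 0.176 and 5.03 CPM (-1.22 ± 0.80). The gene with the flattest slope was Cdca7, at 296.8, 268.9, 191.2 and 176.005 CPM (-0.29 ± 0.20).

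**Figure D3:**
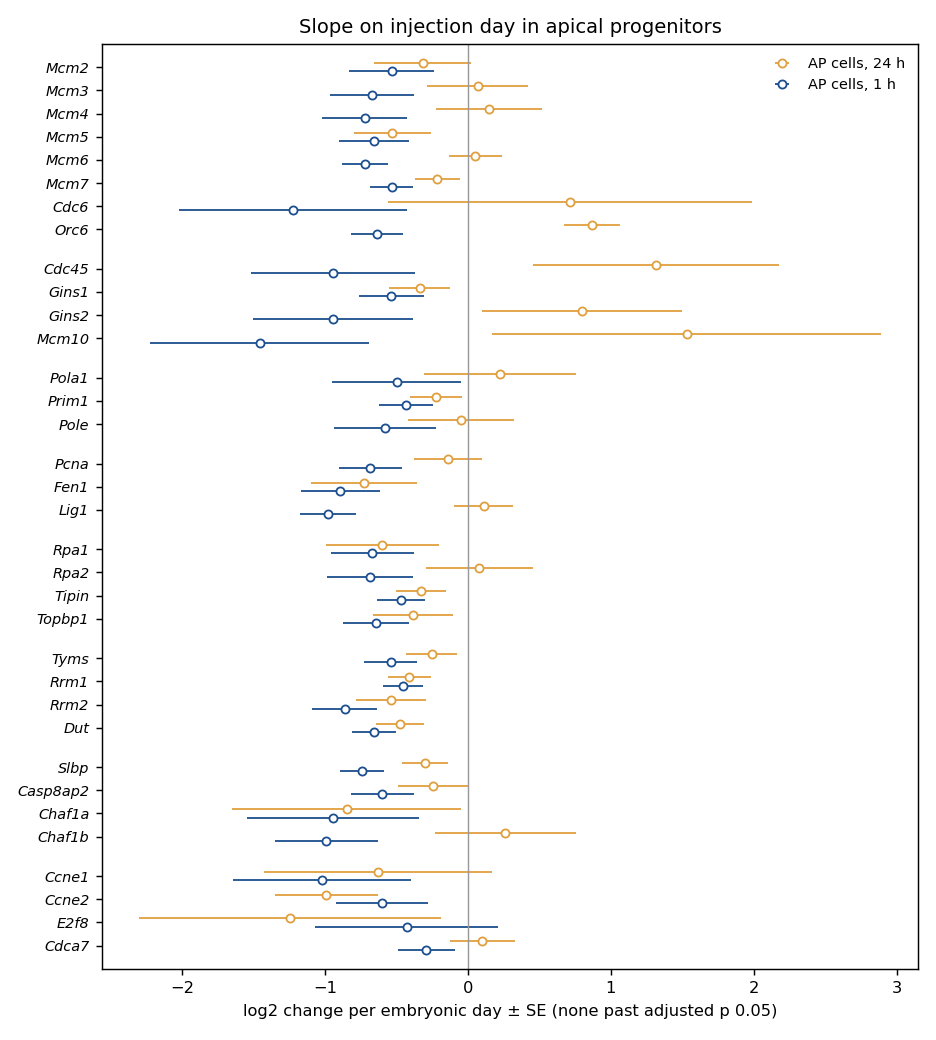
Slope on injection day (log2 change per embryonic day, horizontal axis, ± SE) of each of the 34 genes in AP cells at 24 h (orange, upper of each pair) and at 1 h (blue, lower), grouped by role; no slope passed an adjusted p of 0.05. All 34 slopes at 1 h lie left of 0, while 13 of the 34 at 24 h lie right of it, Orc6 at 0.87 having the smallest p.

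In AP cells at 24 h the slopes were mixed in sign. Of the 34 genes, 21 had a negative slope (47.2% of all genes), with a median of -0.24 per day; none passed (0.0193% of all genes) and 5 had an unadjusted p under 0.05 (13.9% of all genes). Orc6 went up in value, at 19.9, 41.5, 103.7 and 109.1 CPM from E12 to E15 (0.87 ± 0.20, adjusted p = 0.0998), while it went down in AP cells at 1 h (172.03, 100.7, 84.8 and 43.2 CPM, -0.64 ± 0.18). In BP cells at 24 h, 28 of 34 slopes were negative (48.9% of all genes), with a median of -0.31; none passed (0.00965% of all genes), and Dut and Slbp had an unadjusted p under 0.05 (7.08% of all genes did). Dut held 518, 508, 148.8 and 157.9 CPM in BP cells, with a slope of -0.68 ± 0.16 (adjusted p = 0.352). At 24 h, E12 and E13 shared a run code and E14 and E15 another, and with the run code as a block the median slope turned to 0.32 in AP cells and to 0.25 in BP cells. Within the run codes, the summed level in BP cells was 6564 CPM in E13 and 5591 CPM in E12, and 3696 CPM in E15 and 2658 CPM in E14; in AP cells it was 6138 CPM in E13 and 4017 CPM in E12, and 3116 CPM in E15 and 4014 CPM in E14. The day trend at 24 h and the run cannot be told apart.

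The 3 progenitor slopes were compared in a single test per gene. No member passed in edgeR (0.0193% of all genes did). Orc6, Lig1, Mcm6 and Ccne2 had an unadjusted p under 0.05 (5.61% of all genes), Orc6 with the smallest (adjusted p = 0.298). DESeq2 called 1, and its share over all genes is not given here. A day trend particular to AP cells at 1 h was not shown.

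Genes of G2 and M phase were read in the same fits. In AP cells at 1 h, 18 of the 26 had a negative slope (48.2% of all genes), with a median of -0.09. None had an unadjusted p under 0.05 (3.06% of all genes). In AP cells at 24 h, 25 of the 26 had a negative slope (47.2% of all genes). The median was -0.65, beside -0.24 for the replication genes, and 7 had an unadjusted p under 0.05 (13.9% of all genes). In BP cells at 24 h all 26 slopes were negative (48.9% of all genes). The median was -0.60, beside -0.31, and 2 had an unadjusted p under 0.05 (7.08% of all genes). No gene of the list passed in AP cells at 1 or 24 h (0.0193% of all genes each) or in BP cells (0.00965%). Their summed level in AP cells at 1 h was 5849, 4632, 4663 and 5261 CPM from E12 to E15, and within run codes it was 4663 CPM in E14 and 5849 CPM in E12 (0.797), and 5261 CPM in E15 and 4632 CPM in E13 (1.14). Mki67, a marker of cycling cells, had 795, 422, 666 and 648 CPM from E12 to E15 (-0.06 ± 0.28 per day), and Ccnb1, the mitotic cyclin, had 241.01, 201.8, 246.1 and 197.8 CPM (-0.07 ± 0.25). Top2a, the topoisomerase that separates sister chromatids, had 868, 409.8, 327 and 311 CPM (-0.50 ± 0.31), and Cdk1, the mitotic kinase, had 152.2, 76.8, 73.5 and 91.9 CPM (-0.25 ± 0.35). E12 cells at 1 h also had more detected genes (medians of 5037, 3879, 4211.5 and 4354 from E12 to E15) at similar counts per cell (320197, 331361, 356916.5 and 298735), and a median of 29, 16, 16 and 13 of the 34 genes was detected per cell; the part of the detection rate in the trend was not tested.

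In the lineage sums, 22 of the 26 G2 and M phase genes fell between 24 and 96 h (12.5% of all genes tested), with a median log2 change of -2.55. Between 1 and 24 h, 11 of 26 fell (7.76% of all genes), with a median of -1.31, and none rose at either step. Mki67 had 789, 407, 641 and 537 CPM at 1 h, 215.9, 227.7, 111.1 and 231.5 CPM at 24 h, and 35.4, 49.5, 37.1 and 68.5 CPM at 96 h, with log2 changes of -2.00 ± 0.28 and -1.62 ± 0.28 at the later and the earlier step (adjusted p = 0.000384 and 0.00141). Ccnb1 had 233.6, 196.4, 243.3 and 162.8 CPM at 1 h, 136.7, 97.4, 58.6 and 49.2 CPM at 24 h, and 10.5, 11.04, 20.6 and 16.7 CPM at 96 h, with -2.41 ± 0.33 and -1.36 ± 0.31 (adjusted p = 0.000291 and 0.00873). Top2a and Cdk1 fell at the later step, with -3.05 ± 0.67 and -3.74 ± 1.07 (adjusted p = 0.00600 and 0.0219), and did not pass at the earlier one, with changes of -0.65 and -0.35 (adjusted p = 0.478 and 0.835). Whether the 2 lists differ was not tested.

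A list of 60 other replication genes was read beside the set. From 24 to 96 h, 20 of the 55 tested fell (12.5% of all genes tested) and none rose (11.7%), with a median of -0.80. They included Rfc4, a clamp loader subunit (-1.32 ± 0.22, adjusted p = 0.00124), Ccna2, cyclin A (-2.45 ± 0.42, 0.00138), Pold2 and Pold1, subunits of the lagging-strand polymerase (-1.36 ± 0.24 and -1.73 ± 0.34, 0.00175 and 0.00343), Hells, a chromatin remodeller (-1.60 ± 0.33, 0.00445), and the transcription factor E2f1 (-1.65 ± 0.35, 0.00466). From 1 to 24 h, 8 of 55 fell (7.76% of all genes) and 1 rose (11.4%), with a median of -0.41. Those that fell included Samhd1, which breaks down nucleotides (-1.56 ± 0.35, adjusted p = 0.00747), Dtl, part of an S phase ubiquitin ligase (-1.64 ± 0.42, 0.0162), the clamp loader Rfc1 (-0.86 ± 0.24, 0.0227), Hells (-1.07 ± 0.33, 0.0384) and the histone chaperone Nasp (-0.62 ± 0.20, 0.0402). The gene that rose was Rpa3, the small subunit of the single-strand binding protein, with 108.01, 84.9, 60.4 and 62.2 CPM at 24 h, against 45.7, 55.6, 41.7 and 30.9 CPM at 1 h (0.82 ± 0.22, adjusted p = 0.0213). Its partners Rpa1 and Rpa2 had changes of -0.51 ± 0.30 and -0.23 ± 0.50 at that step and did not pass. With injection day in AP cells at 1 h, 57 of the 60 had a negative slope (48.2% of all genes); none passed (0.0193% of all genes), and Dnmt1, the maintenance DNA methyltransferase, was closest, with 342, 163.6, 103.2 and 64.4 CPM (-0.81 ± 0.15, adjusted p = 0.0992).

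Neurons at 24 h held lower values than basal progenitors, with the lowest role medians in origin firing (-3.01 on the log2 scale) and the G1/S regulators (-2.95). N1d cells were lower than BP cells for all 34 genes in the fitted level, against 5100 of all 10359 genes. The median log2 difference was -1.87, against 0.01 for all genes. The ratio of the summed level, N1d over BP, was 0.318, 0.212, 0.401 and 0.362 for E12 to E15. At E14, where the BP sum held 8 cells, 6 of the 34 genes were higher in N1d cells. Mcm10, a firing factor, had the widest difference, with 7.96, 3.44, 0.149 and 0.166 CPM in N1d cells and 17.2, 91.05, 65.04 and 34.6 CPM in BP cells. Ccne2 held 9.90, 5.17, 1.24 and 1.51 CPM in N1d cells and 27.99, 54.8, 131.6 and 57.6 CPM in BP cells, with no overlap. At the other end, Casp8ap2 held 85.7, 105.3, 109.99 and 115.5 CPM in N1d cells and 105.9, 171.9, 45.1 and 145.3 CPM in BP cells, which overlapped, and Orc6 held 62.8, 62.8, 85.2 and 68.5 CPM in N1d cells and 83.9, 93.98, 95.9 and 93.3 CPM in BP cells. The size of the difference varied widely between genes.

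BP cells, set against AP cells at 24 h, were higher for some genes and lower for others. The fitted level was higher in BP cells for 22 of 34 genes, against 5326 of all 10359 genes. The median log2 difference was 0.24, against 0.02 for all genes. The ratio of summed levels, BP over AP, was 1.39, 1.07, 0.662 and 1.19 for E12 to E15. The E14 sum of BP cells held 8 cells. Rrm2 had 394, 402, 103.2 and 221.3 CPM in BP cells and 206.3, 149.1, 107.8 and 68.2 CPM in AP cells, higher in BP on 3 of 4 days. Cdca7 went the other way, with 165.6, 120.4, 115.1 and 170.1 CPM in BP cells and 142.8, 388, 309 and 218.5 CPM in AP cells, lower in BP on 3 of 4 days. By role, nucleotide supply made up 1689, 1721, 554 and 916 CPM in BP cells, against 1180, 1027, 728 and 547 CPM in AP cells, and licensing made up 1188, 1684, 724 and 864 CPM in BP cells, against 935, 1932, 1287 and 977 CPM in AP cells. These contrasts between authors' clusters are descriptions with no test.

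Levels were also divided by the length of annotated exons; whether counts scale with length in this protocol was not tested. Per kb of exon in AP cells at 1 h, Dut stood at 95.8 CPM, Mcm7 at 77.1, Cdca7 at 72.8 and Tipin at 66.8, while Cdc6 (3.4), E2f8, a repressor of E2F targets (3.45), Mcm10 (3.71) and Ccne2 (4.51) were lowest. Mcm7 shares exons with the miRNA genes Mir25 and Mir93 on its strand and with Ap4m1 and Cops6 on the other. Opposite-strand exon overlap was annotated for 11 of the 34 genes, and Pcna, Topbp1 and Tyms have annotated pseudogenes, so their reads may be shared with these.

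In single cells, the summed counts of the 34 genes over the cell total spread widely within every class. The median was 1018 CPM in N1d cells (10th to 90th percentile 236.5 to 2545), 4150 CPM in BP cells (872 to 10840) and 2857 CPM in AP cells at 24 h (727.4 to 8338), and 2915 CPM in AP cells at 1 h (673.9 to 8581). N4d cells at 96 h had 780.2 CPM (128.3 to 1845). The median depth was 319328 counts in AP cells at 1 h and 344845 counts in N4d cells at 96 h. As a background, the 95th percentile of N4d cells, which should not replicate, was taken after each cell had been thinned to 50000 counts, which gave 2340 CPM. In AP cells at 1 h, 98.9% of E12 cells exceeded it (Clopper-Pearson 95% interval 96.1 to 99.9%), 61.8% of E13 cells, 42.7% of E14 cells and 29.1% of E15 cells (23.1 to 35.7%). At 24 h it was 20.0, 16.9, 5.88 and 8.59% of N1d cells, 76, 70.2, 37.5 and 31.4% of BP cells, and 78.6, 68.2, 65.6 and 38.6% of AP cells, from E12 to E15. Without thinning (background 2284 CPM), the shares in AP cells at 1 h were 98.9, 62.2, 42.5 and 31.5%. Cells left out for depth numbered 0 to 11 per group, 2 to 22 AP cells at 1 h per day lay within 10% of the cut, and the intervals cover counting error only. In N4d cells the share was 4.17, 3.37, 2.84 and 11.5%, so the E15 cells at 96 h stood above the earlier days.

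**Figure D4:**
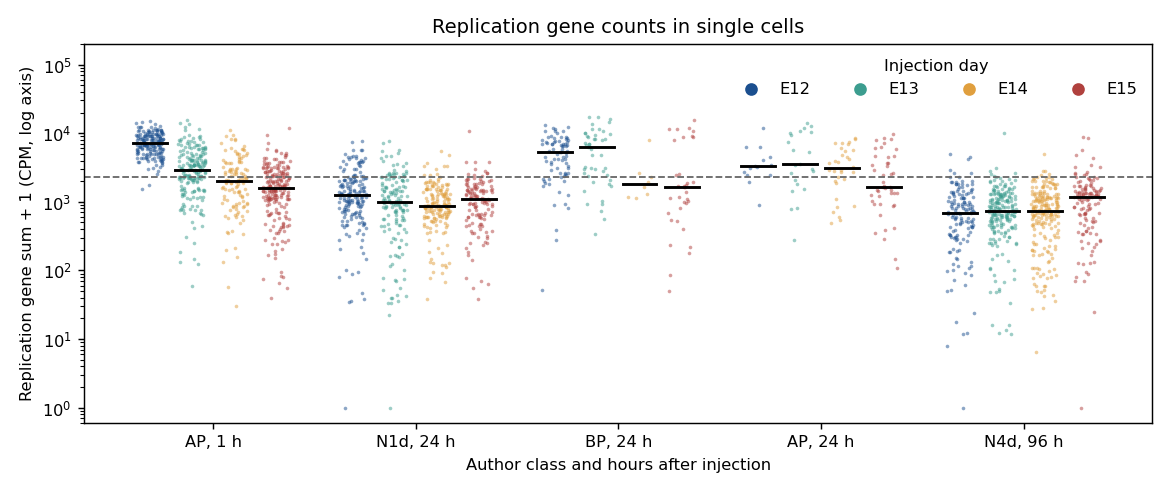
Summed counts of the 34 genes in each cell, plus 1, on a log axis (CPM), by author class and hours after injection, with cells coloured by injection day, a black line at each median and a dashed line at 2284 CPM, the 95th percentile of N4d cells at 96 h without thinning. E12 AP cells at 1 h form a narrow band around 7103 CPM, while those of E13 to E15 spread below it, with medians of 2957, 2009 and 1563 CPM.

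The E12 cells at 1 h stood high throughout. Their 10th percentile was 4160 CPM, above the medians of E13, E14 and E15 (2957, 2009 and 1563 CPM), and their 90th was 10920 CPM, against 6961, 5652 and 3632 CPM. The relation between replication and G2 and M phase genes across cells also differed: Spearman's rho over AP cells at 1 h was -0.397 for E12, 0.026 for E13, 0.282 for E14 and 0.486 for E15, over at least 100 cells a day. Cells of a day share a run and are not replicates, so these are descriptions. With the total count per cell, rho was between -0.042 and 0.254.

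The authors' clusters differed in these genes, and most E12 cells belonged to 1 cluster, AP.early. The median per cell was 7234 CPM in AP.early, 2415 CPM in AP.mid1, 2507 CPM in AP.mid2 and 1268 CPM in AP.late. AP.mid2 was the cluster high in G2 and M phase genes, at 10170 CPM, against 3611, 1611 and 1271 CPM in AP.early, AP.mid1 and AP.late. Within clusters, E13, E14 and E15 could be set side by side. The summed level in AP.mid1 was 3484, 2430 and 2600 CPM for E13, E14 and E15, and in AP.mid2 it was 3033, 2727 and 2529 CPM. In AP.late it was 3921, 1566 and 1624 CPM, the E13 sum holding 15 cells. E12 cells could not be compared with other days within a cluster, since AP.early held few cells of another day.

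BP cells belonged to the clusters BP.early and BP.late. At 24 h, the median was 6925 CPM in BP.early for the replication genes and 7196 CPM for the G2 and M phase genes, and 1675 and 407 CPM in BP.late. BP.early cells came mostly from E12 and E13 (64 and 25 of 98 cells). Summed by day, BP.early stood at 6145 CPM in E12 and 7420 CPM in E13, and BP.late at 2415, 5388 and 1334 CPM in E12, E13 and E15. In the N4d cluster N4d.late2, the E15 sum reached 1658 CPM, against 965, 956 and 933 CPM in E12 to E14, and G2 and M phase genes stood at 419 CPM, against 414, 197.6 and 320.2 CPM.

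**Figure D5:**
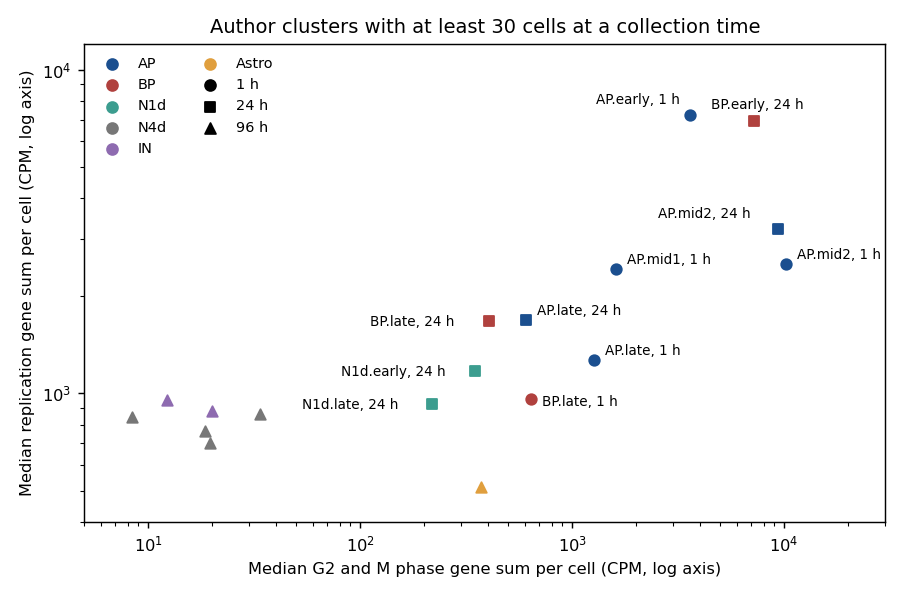
Median per cell of the summed level of the 34 replication genes (vertical, CPM, log axis) and of 26 G2 and M phase genes (horizontal, CPM, log axis) for each author cluster with at least 30 cells at a collection time; colour marks the class and shape the time. AP.early at 1 h (7234 CPM) and BP.early at 24 h (6925 CPM) stand highest, AP.mid2 cells lie far right at 2507 CPM (1 h), and the neuron clusters lie at the lower left.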

How the data were processed

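Single cells were captured on C1 HT chips and made into libraries with SMART-Seq v4 and Nextera XT, per the labels' protocols. The authors deposited raw counts, 1 whole number per gene and cell, with no normalization. TopHat2 2.0.13, UMI-tools and GRCm38 are named in the submitters' processing notes, without their roles; the counting tool and the annotation are not given in the sources used here, nor whether strand was used. Reads of overlapping genes, and of pseudogenes, may therefore be split or shared.

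All 2756 cells were used, each under the authors' cluster label, and no doublet caller was run. No 2 cells had identical counts. Counts were summed per condition or per class and day. Genes with at least 10 CPM in at least 3 sums were tested with edgeR 4.0.16 (quasi-likelihood test, TMM factors, R 4.3.3), with p-values adjusted by the Benjamini-Hochberg method over all genes tested. The comparison of times had terms for time and for injection day as a number (12 sums, 8 residual degrees of freedom), and the comparison of classes had a level and a slope on day for each class (16 sums, 8 degrees). Cells were never replicates.

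Values per sum are given for up to 8 members past the threshold with the smallest p in each comparison, for the MCM ring, Pcna, Ccne1, Ccne2, Cdc6 and Slbp, for up to 6 other replication genes, and for Mki67, Top2a, Cdk1 and Ccnb1; other genes were named after their values were seen. The rule for promoters, which asked for members past the threshold between AP cells at 24 and 1 h, gave none, so another was used. The members and lists were chosen with earlier results of these data known. Markers of other cell types were read as summed levels, given here for the class sums at 1 and 24 h. Interneuron markers reached at most 31.1 CPM, microglia markers 1.37 CPM, oligodendrocyte precursor markers 15.5 CPM, mural markers 16.1 CPM, endothelial markers 15.1 CPM and meningeal and choroid markers 2.19 CPM. Astrocyte markers stood at 1020 to 1570 CPM in AP cells at 24 h and at 253 to 876 CPM at 1 h, Cajal-Retzius markers at up to 110 CPM and mature neuron markers at up to 480 CPM, both in N1d cells. None of the 3 blood markers was in the table.

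Alternatives were DESeq2 1.42.0, its size factors, no filter, deeper cells, all cells, run codes as samples or block, injection day as a replicate block, embryonic age, another background or thinning depth, and leaving out each condition. Summaries used Python 3.11.15, numpy 2.4.6, pandas 2.3.3 and scipy 1.17.1, and plots matplotlib 3.10.9. On simulated data, the lineage fit was checked for the step from 1 to 24 h only. The class fit was checked for the slope in AP cells at 1 h only.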

Additional observations from a re-analysis of the deposited data

Results flagged for a closer look

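In 8 of 99 groups of 4 injection days, 1 day stood apart from the other 3 by Dixon's criterion, which chance alone meets in about 1 in 20 groups. Ccne1 was high in E12 cells at 1 h, both in AP cells (59.6 CPM) and in the lineage sum (57.7 CPM), and in N1d cells at 24 h (6.32 CPM). In E13 cells at 24 h, Mcm2 (311 CPM) and Pcna (148.3 CPM) were high in AP cells, and Mcm4 was high in BP cells (166.2 CPM). Cdc6 was low in E14 N1d cells at 24 h (0.0895 CPM) and high in the E15 lineage sum at 96 h (5.49 CPM).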

How the results depend on the processing

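Each tested count was recomputed under the alternatives that apply to it. The share of all genes called under each alternative, DESeq2 included, is not given here. The counts in this section therefore describe the members only. The number of members that fell between 24 and 96 h was 17, 11 with no filter and 7 to 25 with 1 condition left out. Between 1 and 24 h it was 2, 7 by DESeq2, 0 with no filter, 1 with all cells and 0 to 6 with 1 condition left out. Slopes on injection day gave no call in the edgeR fit of the class sums. DESeq2 called 4 lower in AP cells at 1 h, and 1 higher and 2 lower in AP cells at 24 h. It also called 1 lower in BP cells and 1 difference between slopes. The fit with large sums, chosen after seeing the data, called 8 lower. With the 90th percentile as background, 22.2% of N1d cells exceeded it on average, against 12.8%.

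For these genes, named by rule, the sign turned. Between 1 and 24 h, Slbp (-0.02) was 0.014 with deeper cells, 0.0011 with all cells and -0.25 to 0.33 with 1 condition left out. Leaving out 1 condition gave -0.90 to 1.06 for Cdc6 (-0.21) and -0.69 to 0.14 for Pcna (-0.39). Between AP cells at 24 and 1 h the range was -0.23 to 0.52 for Mcm2, -0.27 to 0.52 for Mcm3, -0.43 to 0.69 for Mcm4, -0.33 to 0.36 for Mcm5, -0.13 to 0.041 for Mcm7, -0.38 to 1.17 for Ccne1 and -1.08 to 3.65 for Cdc6, and Mcm7 was 0.31 with embryonic age. The slope of Ccne2 in AP cells at 1 h was -0.72 to 0.12. The cause of these changes was not tested.

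Labels give no animal or litter, so injection day is the only number that could pair sums. With injection day as a replicate block, 16 members fell between 24 and 96 h and 2 between 1 and 24 h, Cdc6 was 0.31 between 1 and 24 h, and Mcm4 and Mcm5 were -0.13 and -0.039 between AP cells at 24 and 1 h. The AP and BP sums at 24 h held 8 to 78 cells, which limits their precision.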

Other observations

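Few progenitors were left among labelled cells at 96 h. The median per cell of the 34 genes was 1452 CPM in the 16 AP cells and 1642 CPM in the 16 BP cells of that time. Among BP cells at 96 h, the 4 cells of BP.early had a median of 8469 CPM and the 12 of BP.late 1192 CPM. Astrocytes at 96 h (64 cells) had 511.9 CPM and interneurons 930 CPM.

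At 1 h, some labelled cells already carried other class names: 44 BP cells had a median of 1080 CPM, 40 interneurons 803.8 CPM, 17 N1d cells 759 CPM and 15 N4d cells 1385 CPM. The 5 BP.early cells at 1 h had a median of 6050 CPM and the 39 BP.late cells 961.4 CPM.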
